A study of Mus musculus with 6 samples.

Results

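The genes described here encode the matrix metalloproteinases (MMP), the ADAM, ADAMTS and ADAMTS-like (ADAMTSL) proteins and the tissue inhibitors of metalloproteinases (TIMP). They were chosen by symbol, as MMP, ADAM, ADAMTS, ADAMTSL or TIMP followed by a number, without Mmp9. The choice was made with earlier results of these data known. Of 83 genes with such a symbol in the gene name table, 52 had a value among the 16344 genes measured. They were 15 MMP, 13 ADAM, 16 ADAMTS, 5 ADAMTSL and 3 TIMP genes, and each of the 52 entered the fit without a filter on low values. The 31 others, of which 20 were ADAM genes, are not analysed here. Mmp7, Mmp25, Adam28, Adamts13 and Timp4 are among them.

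The 6 libraries came from mouse tumours of a high-grade serous ovarian cancer model, grown after the murine line 60577 was injected into the abdominal cavity of syngeneic animals. Tumours were left to establish for 21 days, and 3 weekly cycles of carboplatin followed, after which AZD7507, an inhibitor of the macrophage growth factor receptor CSF1R, was given daily by gavage for 84 days. The protocol text is the same for both groups, and the treatment label separates 3 AZD7507 tumours from 3 Vehicle tumours, all taken at the endpoint. The sources used here do not give strain, age or the day of collection. Vehicle 1, 2 and 3 are the libraries Ctrl_G4NM, Ctrl_G11L and Ctrl_G21R, and AZD7507 1, 2 and 3 are AZD_G62R, AZD_G7NM and AZD_G72R.

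MMPs are zinc-dependent proteinases that cut collagens, elastin and other matrix proteins, either secreted or held at the cell surface. They are made as inactive zymogens, and TIMPs block the active enzymes. ADAMs are membrane proteins, several of which shed growth factors, cytokines and receptors from the cell surface, while ADAMTS enzymes are secreted and cut proteoglycans or process procollagens. ADAMTSL proteins resemble ADAMTS enzymes but lack the proteinase domain. In ovarian tumours, members of these families are read from tumour cells, fibroblasts, endothelium and leukocytes, though not each member from all of them.

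Values are log2 RPKM, that is, read density per gene length on a log scale, where 0 stands for 1 RPKM. Differences are AZD7507 minus Vehicle on that scale, from limma, and a call needs a Benjamini-Hochberg adjusted p under 0.05 over all genes. Upper quartiles were 3.52 and maxima 10.16 in each library, and the depth of the libraries is unknown. Vehicle 2 and AZD7507 2 carried pancreatic acinar transcripts, at mean log2 levels of 9.05 and 9.19 against -3.14 to -0.07 in the other 4 tumours. The main results are therefore given with and without that pair of libraries. Of 12 macrophage markers, 12 were measured and lower with AZD7507, 11 at an unadjusted limma p under 0.05, and 6 were called. Their summed level was 422 to 681 RPKM with Vehicle and 83.1 to 200.3 with AZD7507. Without the acinar-rich pair those 6 had limma adjusted p of 0.057 to 0.062 and none was called. Of the other marker lists, the epithelial sum spanned 321 to 561 RPKM and the mesothelial sum 547 to 1050, so epithelial and mesothelial transcripts were present in every library, although the serous marker Pax8 was low, at -3.89 to -2.09 on the log2 scale. In bulk tissue, fewer cells of a type and less RNA per cell cannot be told apart.

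None of the 52 genes was called in either direction, while 0.337% of all genes were called lower and 0.0184% higher. Without a correction for multiple tests, 2 of the 52 had a p under 0.05 downward (Adam15 and Adam19), or 3.85%, against 5.49% of all genes. Upward 1 did (Adamts14), or 1.92%, against 3.31%. The groups did not overlap for 3 members that were lower with AZD7507 (5.77%) and for 1 that was higher (1.92%), against 8.02% and 7.34% of all genes. These shares lay below those of all genes. The median difference was 0.04 over the 52 members and 0.02 over all genes. The members nevertheless varied more between tumours than a typical gene did, with a median range over the 6 libraries of 1.32 log2 units against 0.61 for all genes. Ranges were not compared at matched levels, and the median level was 1.89 for the members against 2.29 for all genes. The TIMP genes had a median range of 0.64.

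**Figure D1:**
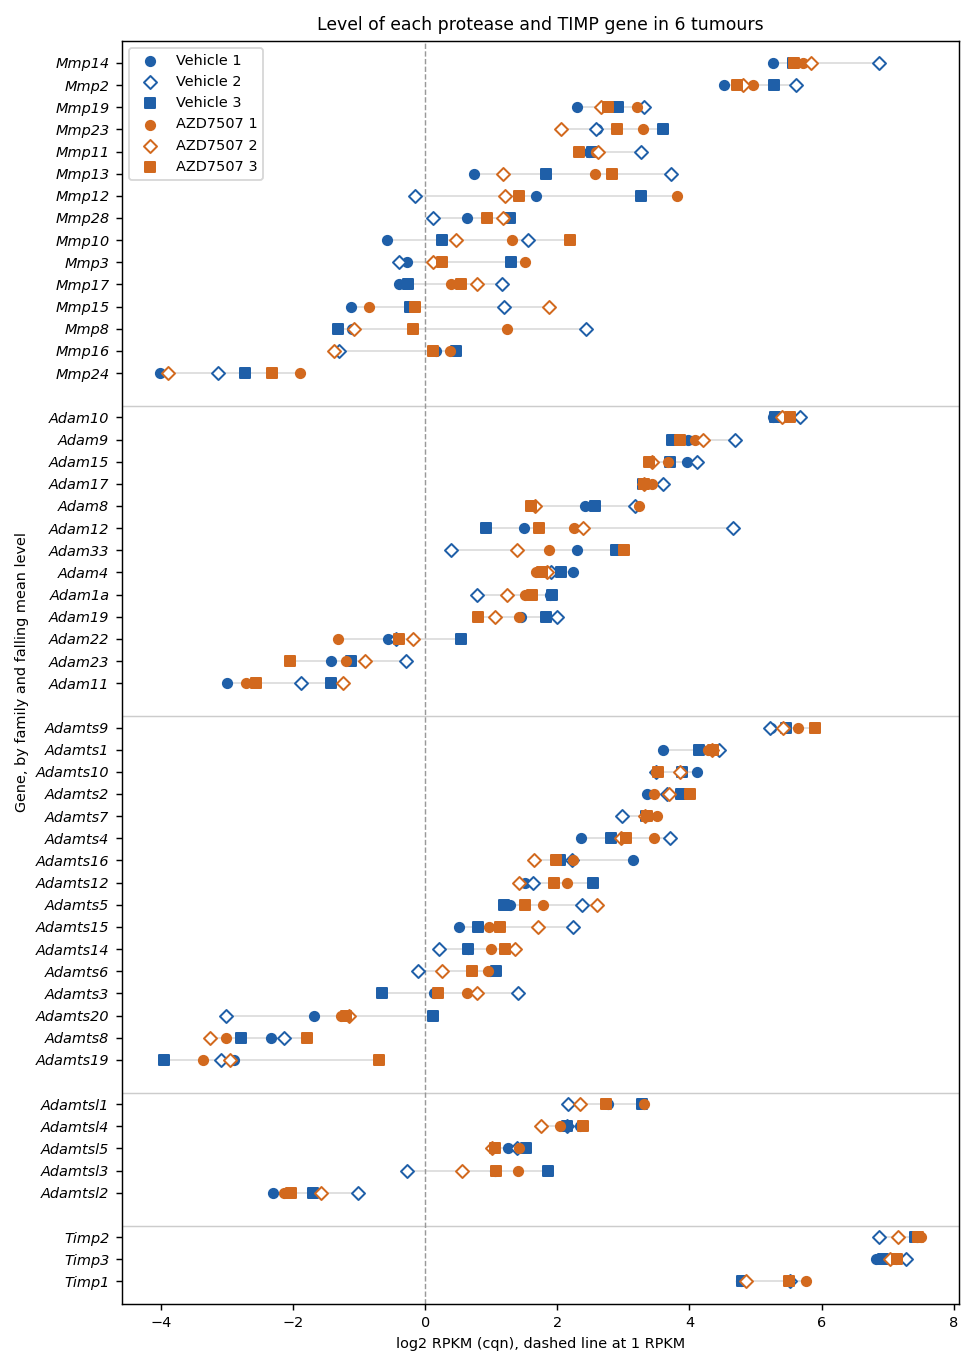
Log2 RPKM (horizontal axis) of each of the 52 genes in each of the 6 tumours, with genes grouped by family and ordered by mean level. Blue marks are Vehicle, orange marks are AZD7507, and open diamonds are the acinar-rich libraries. Timp2 and Timp3 had the highest levels, and Vehicle 2 lies apart to the right for Adam12, Mmp14 and Mmp8.

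Timp2 and Timp3 had the highest mean levels of the set, and Timp1 was at rank 6. Timp2, whose product also takes part in activating MMP2, was at 7.45, 6.87 and 7.41 with Vehicle and 7.51, 7.15 and 7.46 with AZD7507. Timp3, an inhibitor that binds the matrix and also blocks several ADAMs, was at 6.83, 7.28 and 6.93 against 7.12, 7.03 and 7.15. Both groups overlapped for each gene. The differences were 0.13 for Timp2 (SE 0.19, 95% interval -0.32 to 0.58) and 0.09 for Timp3 (SE 0.15, interval -0.26 to 0.43), with limma adjusted p of 0.90 and 0.91. Of the exonic bases of Timp3, 21.3% are shared with the gene Syn3 on the opposite strand. The sources used here do not state the strand setting of the counts, so reads of that stretch could come from either gene.

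Timp1, a secreted inhibitor inducible by cytokines, was at 4.77, 5.52 and 4.79 with Vehicle and at 5.76, 4.86 and 5.51 with AZD7507. The acinar-rich library was the highest Vehicle tumour and the lowest AZD7507 tumour, so the groups overlapped. Means were 5.03 ± 0.43 and 5.38 ± 0.46 (SD, n = 3), and the difference of 0.35 (SE 0.28, interval -0.32 to 1.02) had a limma adjusted p of 0.80. Without the acinar-rich pair both AZD7507 tumours were above both Vehicle tumours, by 0.85 (SE 0.12, interval 0.56 to 1.14). That difference had an unadjusted limma p of 0.00036 and an adjusted p of 0.091, so it was not called. In the same fit Timp3 differed by 0.26 (limma adjusted p 0.30) and Timp2 by 0.05 (limma adjusted p 0.83).

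Among the MMPs, the cell surface enzyme Mmp14 and the gelatinase Mmp2, which MMP14 activates, had the highest levels. Mmp14 was at 5.27, 6.87 and 5.57 with Vehicle and 5.72, 5.85 and 5.58 with AZD7507. In RPKM these were 38.5, 117 and 47.6 against 52.7, 57.5 and 47.9, so Vehicle 2 stood above the other 5 tumours while those overlapped. The difference was -0.19 (SE 0.38, interval -1.07 to 0.70, limma adjusted p 0.93), and it was 0.23 without the acinar-rich pair (SE 0.14, limma adjusted p 0.44). Mmp2 was at 4.52, 5.62 and 5.27 with Vehicle and 4.97, 4.82 and 4.72 with AZD7507, again with overlapping groups. Its difference was -0.31 (SE 0.26, interval -0.92 to 0.31) with all tumours and -0.06 without the pair, at limma adjusted p of 0.82 and 0.93.

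Mmp15, Mmp16, Mmp17 and Mmp24, which also encode membrane-bound MMPs, were low. Mmp15 was at 1.19 and 1.88 in the acinar-rich libraries and between -1.13 and -0.15 in the other 4. Mmp16 ran the other way, at -1.30 and -1.39 in that pair and 0.11 to 0.46 elsewhere, and Mmp17, which is anchored by a lipid, was at 1.15 and 0.78 in the pair and -0.40 to 0.53 elsewhere. For these genes the pair lay outside the range of the other tumours whatever the treatment. The same held for 11 of the 52 members above (21.2%, against 13.0% of all genes) and for 10 below (19.2%, against 16.2%). Mmp24 lay between -4.02 and -1.90, with a difference of 0.59 with an SE of 0.64 (limma adjusted p 0.86).

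Mmp11, Mmp19 and Mmp23 had intermediate levels. Mmp11, a stromelysin known from tumour stroma, was at 2.48, 3.27 and 2.52 with Vehicle and 2.58, 2.62 and 2.32 with AZD7507. Mmp19 was at 2.30, 3.31 and 2.92 against 3.20, 2.66 and 2.77, and Mmp23 at 2.60, 2.59 and 3.59 against 3.29, 2.06 and 2.90. Groups overlapped for all 3. Their differences were -0.25, 0.03 and -0.18, with limma adjusted p from 0.83 to 0.99. Of the exonic bases of Mmp19, 28.3% are shared with Tmem198b on the opposite strand. Mmp28, an epithelial MMP, was at 0.63, 0.11 and 1.29 against 1.18, 1.18 and 0.94, a difference of 0.43 with an SE of 0.30 (limma adjusted p 0.77) that was 0.14 without Vehicle 2 and 0.10 without the acinar-rich pair.

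Of the 10 MMP genes in the cluster on chromosome 9 (GRCm38, 7272514 to 7699585, a span of 427 kb in GENCODE M21), 5 had a value. They are the collagenase gene Mmp13, the macrophage elastase gene Mmp12, the stromelysin genes Mmp3 and Mmp10, and the neutrophil collagenase gene Mmp8. The stretch before the RefSeq start of each is shown because 4 of the 5 hold the same promoter element. AP-1, the dimer of FOS and JUN proteins, binds TGANTCA, and matches are in capitals. The pattern TGANTCA, where N is any base, reads the same on both strands, so 1 search covers both.

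Mmp13 promoter, chr9:7272394-7272513, plus strand: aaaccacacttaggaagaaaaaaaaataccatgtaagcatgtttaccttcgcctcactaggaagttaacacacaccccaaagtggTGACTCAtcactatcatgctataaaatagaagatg
Mmp12 promoter, chr9:7347254-7347373, plus strand: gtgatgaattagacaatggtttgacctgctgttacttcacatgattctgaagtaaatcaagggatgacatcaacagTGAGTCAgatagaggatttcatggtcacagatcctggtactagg
Mmp3 promoter, chr9:7445702-7445821, plus strand: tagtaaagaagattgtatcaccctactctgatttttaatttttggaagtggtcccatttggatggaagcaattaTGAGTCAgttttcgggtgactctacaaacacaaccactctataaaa
Mmp10 promoter, chr9:7502222-7502341, plus strand: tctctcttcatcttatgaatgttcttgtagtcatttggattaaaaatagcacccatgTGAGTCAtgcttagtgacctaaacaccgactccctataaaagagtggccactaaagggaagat
Mmp8 promoter, chr9:7558309-7558428, plus strand: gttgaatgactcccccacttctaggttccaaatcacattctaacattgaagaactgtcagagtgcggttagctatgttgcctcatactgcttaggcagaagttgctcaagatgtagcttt

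The sequences are from RefSeq on GRCm38.p6, and each shows the 120 bases before the start. The match begins 35 bases before the start of Mmp13, 44 before one of the starts of Mmp12, 46 before Mmp3 and 63 before Mmp10. For Mmp12 the window with the match is shown, and its other window, chr9:7344147-7344446, held none. No match stands in the 250 bases searched for Mmp8. Of the 33 members with a RefSeq promoter window, 5 (15.2%) held a match in 250 bases, the fifth being Adam19 at 131 bases before 1 of its starts. Counted by window, 5 of the members' 37 windows (13.5%) held one, against 6.75% of all 32851 promoter windows. A match describes these letters and is not evidence of binding.

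Mmp13 was at 0.73, 3.73 and 1.82 with Vehicle and 2.57, 1.17 and 2.83 with AZD7507, a difference of 0.10 (SE 0.76, interval -1.68 to 1.87). Mmp10 was at -0.58, 1.56 and 0.26 against 1.32, 0.46 and 2.19, a difference of 0.91 (SE 0.61, interval -0.51 to 2.33), and Mmp8 at -1.11, 2.43 and -1.32 against 1.24, -1.07 and -0.19, a difference of -0.01 (SE 1.04). In each of the 3 genes Vehicle 2 was the highest Vehicle tumour and AZD7507 2 the lowest AZD7507 tumour, and none was called (limma adjusted p 0.99, 0.75 and 1.0). Without that pair the remaining AZD7507 tumours lay above the remaining Vehicle tumours, by 1.42 for Mmp13, 1.91 for Mmp10 and 1.74 for Mmp8. The limma adjusted p were 0.17, 0.14 and 0.20, and these means rest on 2 tumours a group and on low levels.

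In Mmp12 and Mmp3 Vehicle 2 was the lowest of the 6 tumours. Mmp12 was at 1.67, -0.15 and 3.27 with Vehicle and 3.82, 1.21 and 1.42 with AZD7507, so that its highest value was in a tumour given the drug. The difference was 0.55 (SE 0.96, interval -1.70 to 2.81, limma adjusted p 0.92), and 0.15 without the pair (limma adjusted p 0.95). Mmp3 was at -0.27, -0.40 and 1.30 against 1.51, 0.11 and 0.26, with a difference of 0.42 with an SE of 0.55 (limma adjusted p 0.88). For both genes Vehicle 3 and AZD7507 1 were the highest tumours of their groups. The summed macrophage markers were lower in each AZD7507 tumour than in any Vehicle tumour, and their part in the level of Mmp12 was not tested.

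**Figure D2:**
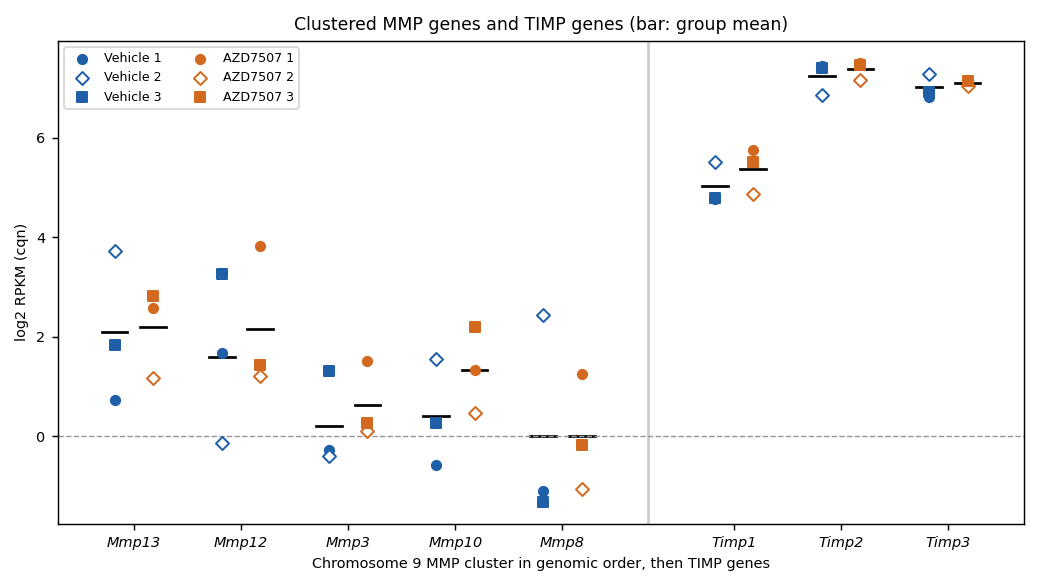
Log2 RPKM (vertical axis) of the measured genes of the chromosome 9 MMP cluster, in genomic order, and of the TIMP genes. Marks are single tumours as in the plot of all genes, blue for Vehicle and orange for AZD7507, open diamonds are the acinar-rich libraries, and bars are group means with n = 3. The open diamonds are the highest Vehicle and the lowest AZD7507 values for Mmp13, Mmp10, Mmp8 and Timp1.

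The genes of AP-1 and ETS factors, which act at many protease promoters, had 13 of 13 members measured and none called. At an unadjusted limma p under 0.05, 1 of the 13, the ETS gene Etv1, was lower (difference -1.14) and 1, Etv4, higher (0.66). Over all genes, 5.49% were lower and 3.31% higher at such a p. The limma adjusted p of Etv1 and Etv4 were 0.42 and 0.53. Ets2 differed by 0.17 (limma adjusted p 0.77). Fosl1, an AP-1 gene named after its values were seen, was at 0.18, 1.18 and 0.39 with Vehicle and 1.07, 0.61 and 1.33 with AZD7507. The acinar-rich pair held its highest Vehicle and its lowest AZD7507 value. The Fosl1 difference was 0.42 with all tumours (SE 0.31, limma adjusted p 0.78). Without the pair it was 0.92 (unadjusted limma p 0.0037, adjusted p 0.15), so it was not called. In that fit Fos differed by 0.36, Fosb by 0.27, Fosl2 by 0.30, Jun by 0.04, Junb by 0.17 and Jund by -0.22. Their limma adjusted p ran from 0.29 to 0.90.

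Among the ADAM genes 11 of 13 differences were below 0 (84.6%, against 45.5% of all genes), with a family median of -0.24. Without the acinar-rich pair 4 of the 13 were above 0 and the median was -0.30. The sheddases Adam10 and Adam17, which release NOTCH and EGF receptor ligands and TNF from the cell surface, were among the steadiest. Adam10 was at 5.26, 5.67 and 5.30 with Vehicle and 5.43, 5.40 and 5.52 with AZD7507, a difference of 0.04 (SE 0.14, interval -0.28 to 0.36). Adam17 was at 3.33, 3.59 and 3.30 against 3.43, 3.31 and 3.31, a difference of -0.05 (SE 0.12, interval -0.33 to 0.22). The groups overlapped for both, and the limma adjusted p were 0.96 and 0.93.

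Adam15 and Adam19 had the smallest p of the family. Adam15, which carries an integrin-binding motif, was at 3.97, 4.11 and 3.70 with Vehicle and 3.68, 3.44 and 3.39 with AZD7507. Adam19, a proteinase known to cut neuregulin, was at 1.45, 1.99 and 1.83 against 1.43, 1.06 and 0.80. Neither pair of groups overlapped, but the gap between them was small in both genes. The differences were -0.43 (SE 0.14, interval -0.76 to -0.09) and -0.66 (SE 0.22, interval -1.18 to -0.14), each with an unadjusted limma p of 0.019 and an adjusted p of 0.43. Without the acinar-rich pair they were -0.30 and -0.53, each with an unadjusted limma p of 0.086. Macrophage markers were lower in the same AZD7507 tumours, and their part in these differences was not tested. Of the exonic bases, 20.6% in Adam15 and 10.1% in Adam19 are shared with genes on the opposite strand.

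Adam4 also had groups that did not overlap, at 2.23, 1.90 and 2.06 against 1.68, 1.84 and 1.77 (difference -0.30, SE 0.14, limma adjusted p 0.59). Adam8, a proteinase of leukocytes, was at 2.42, 3.17 and 2.57 with Vehicle and at 3.24, 1.67 and 1.59 with AZD7507. AZD7507 1 was the highest of the 6, and the difference of -0.55 (SE 0.44, interval -1.59 to 0.49) had a limma adjusted p of 0.80. It was -0.076 without the acinar-rich pair and -1.09 without AZD7507 1. Adam9, another sheddase, was at 3.98, 4.69 and 3.74 against 4.09, 4.20 and 3.86, with a difference of -0.09 with an SE of 0.24 (limma adjusted p 0.95). The ADAMs without proteinase activity, Adam11, Adam22 and Adam23, were low, with levels from -3.0 to 0.54 and differences of -0.07, -0.48 and -0.44. Adam1a shares 63.7% of its exonic bases with the model Gm42878 on the same strand, so its values cannot be assigned to it alone. Adam1a was at 1.88, 0.79 and 1.92 with Vehicle and 1.51, 1.23 and 1.62 with AZD7507, lowest in the acinar-rich pair. Adam33, a proteinase of mesenchymal cells, was at 2.29, 0.39 and 2.89 against 1.87, 1.38 and 3.01, again lowest in that pair, and its difference of 0.23 (SE 0.67) had a limma adjusted p of 0.95. Without that pair it was -0.15.

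Adam12, a proteinase of mesenchymal and regenerating tissue, had the widest range of its family. It was at 1.49, 4.66 and 0.92 with Vehicle and 2.25, 2.39 and 1.72 with AZD7507. Vehicle 2 was 2.27 log2 units above the next tumour, and in RPKM it was at 25.3 against 1.89 to 5.26 in the other 5. The difference between groups was -0.24 (SE 0.88, interval -2.30 to 1.83, limma adjusted p 0.96). Without Vehicle 2 it was 0.92 (unadjusted limma p 0.011, adjusted p 0.23), and without the acinar-rich pair 0.78 (adjusted p 0.25).

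Vehicle 2 was the highest of the 6 tumours for 20 members, or 38.5%, against 22.5% of all genes, and the lowest for 14, or 26.9%, against 26.3%. Vehicle 1 was the lowest for 17, or 32.7%, against 17.5%. Vehicle 2 stood at least 1 log2 unit above the other 5 tumours for 3 members (5.77%), namely Adam12, Mmp14 and Mmp8, against 0.661% of all genes. Vehicle 2 stood as far below them for 2 (3.85%), namely Mmp12 and Adamts20, against 1.18%. Just short of that distance were Mmp13, 0.90 above the next tumour, and Adam33, 0.99 below it. Summed markers of some other cells were high in Vehicle 2 and those of others low. The epithelial sum was 321 RPKM there against 412 to 561 in the other 5 tumours. The mesothelial sum was 547 against 733 to 1050, and the endothelial sum 38.4 against 50.2 to 57.1. Single markers were mixed, as Vehicle 2 was the highest tumour for 4 of 8 measured endothelial, 1 of 8 epithelial and 1 of 8 mesothelial markers. Krt19 counts in both the epithelial and the mesothelial sum. Of 9 osteoclast markers 7 were measured, 6 of them highest in Vehicle 2, and they summed to 156 RPKM in Vehicle 2 and 20.7 to 28.0 in the others, with Ctsk at 6.45 against 2.39 to 2.93. Fibroblast markers summed to 871 RPKM against 583 to 725, and macrophage markers to 681 against 83.1 to 451. Single fibroblast markers were mixed, with 6 of 11 highest in Vehicle 2, whereas 12 of 12 macrophage markers were. Of 12 osteoblast and cartilage markers 4 were measured, without Bglap, Ibsp or Dmp1. They summed to 21.7 RPKM against 7.58 to 13.1, although Col10a1 was low in Vehicle 2, at -1.0 on the log2 scale. Of 10 neutrophil markers 4 were measured, at a sum of 9.88 RPKM against 3.27 to 7.41. Their part in the levels of Adam12, Mmp14, Mmp13 and Mmp8 was not tested. AZD7507 2, as rich in acinar transcripts, was at 2.39 for Adam12, 5.85 for Mmp14, 1.17 for Mmp13 and -1.07 for Mmp8. For Adam12 and Mmp14 both acinar-rich libraries lay above the other 4 tumours. For Mmp13 and Mmp8 AZD7507 2 was the lowest AZD7507 tumour.

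**Figure D3:**
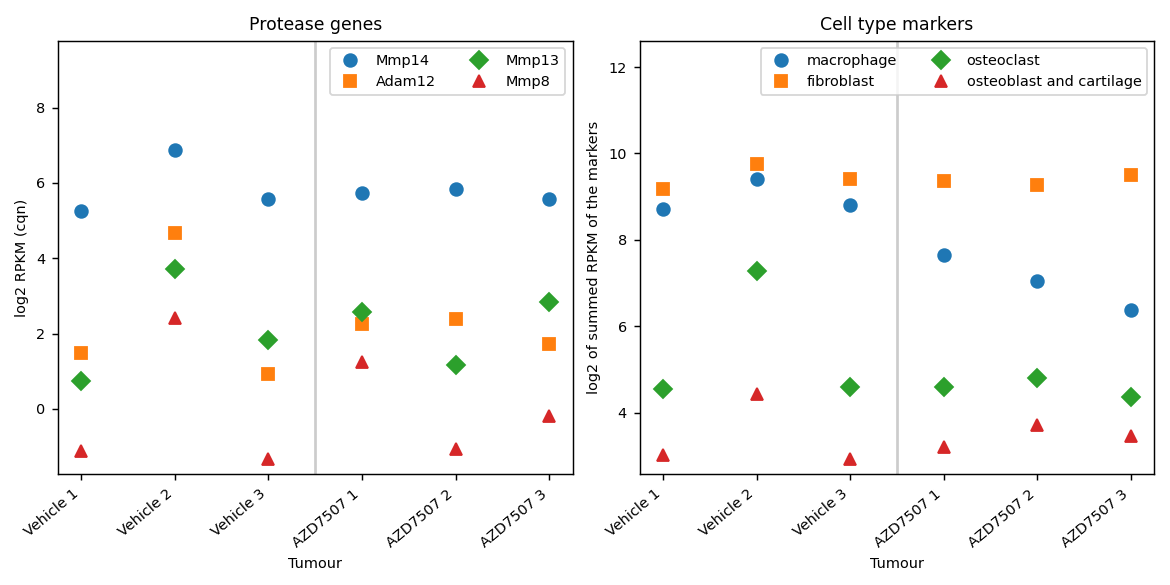
Left, log2 RPKM of Mmp14, Adam12, Mmp13 and Mmp8 in each tumour; right, log2 of the summed RPKM of macrophage, fibroblast, osteoclast, and osteoblast and cartilage markers. The vertical line separates Vehicle from AZD7507, and each symbol is 1 gene or 1 marker sum in 1 tumour. The protease genes and all the marker sums shown peak in Vehicle 2.

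In the ADAMTS family Adamts14 had the smallest p of the whole set. Its product belongs to the procollagen N-proteinases. Adamts14 was at 0.64, 0.21 and 0.65 with Vehicle (0.50 ± 0.25, SD, n = 3) and 1.0, 1.36 and 1.20 with AZD7507 (1.19 ± 0.18), so the groups did not overlap. The difference was 0.69 (SE 0.20, interval 0.21 to 1.16, unadjusted limma p 0.011, adjusted p 0.33), and 0.45 without the acinar-rich pair (adjusted p 0.29). The related procollagen proteinase genes did not share this separation. Adamts2 was at 3.36, 3.66 and 3.87 against 3.47, 3.69 and 4.01 (difference 0.09, SE 0.18), and Adamts3 at 0.13, 1.41 and -0.66 against 0.63, 0.78 and 0.20 (difference 0.25, SE 0.49), with limma adjusted p of 0.93 for both.

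The proteoglycan-cutting enzymes are Adamts1, Adamts4, Adamts5 and Adamts9, among others. Adamts9 was the most abundant, at 5.23, 5.22 and 5.47 with Vehicle and 5.64, 5.42 and 5.90 with AZD7507. Only the lowest AZD7507 tumour lay within the Vehicle range, and the difference was 0.35 (SE 0.15, interval -0.01 to 0.70, limma adjusted p 0.57). Adamts1 was at 3.60, 4.45 and 4.14 against 4.28, 4.34 and 4.36, a difference of 0.27 with an SE of 0.20 (limma adjusted p 0.79). Adamts4 was at 2.35, 3.71 and 2.81 against 3.46, 2.96 and 3.04, with a difference of 0.20 (SE 0.33), and Adamts5 at 1.29, 2.37 and 1.19 against 1.78, 2.59 and 1.51, with a difference of 0.35 (SE 0.39). In all 4 genes the AZD7507 mean was the higher one and the groups overlapped, since Vehicle 2 or Vehicle 3 lay within the range of the AZD7507 tumours or above it. Without the acinar-rich pair these differences were 0.42 for Adamts9, 0.45 for Adamts1, 0.67 for Adamts4 and 0.41 for Adamts5, with limma adjusted p from 0.22 to 0.30. Of their substrates, versican (Vcan) differed by 0.28, biglycan (Bgn) by -0.19 and Comp by -0.72, and none of the 3 measured of 6 listed was called.

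Adamts10, whose product associates with fibrillin microfibrils, was at 4.11, 3.50 and 3.89 with Vehicle and 3.50, 3.85 and 3.52 with AZD7507. The difference was -0.21 (SE 0.18, limma adjusted p 0.82), and -0.49 without the acinar-rich pair (unadjusted limma p 0.0045, adjusted p 0.16). Adamts16 was at 3.14, 2.22 and 2.03 against 2.23, 1.64 and 1.98, and its difference of -0.51 (SE 0.30, limma adjusted p 0.71) was -0.17 without Vehicle 1. Adamts7 and Adamts12, both known to cut COMP, differed by 0.16 and -0.06. Adamts6, Adamts8 and Adamts15 differed by -0.01, -0.27 and 0.09. Adamts19 was at -0.70 in AZD7507 3 and -3.96 to -2.89 in the other 5 tumours, so its difference of 0.97 came with an SE of 0.75. Adamts20 was at -1.69, -3.02 and 0.11 with Vehicle and -1.27, -1.16 and -1.21 with AZD7507, so the AZD7507 tumours lay within the Vehicle range (difference 0.32, SE 0.72).

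The ADAMTSL genes had differences from -0.24 to 0.13, the narrowest span of the families other than TIMP. Adamtsl1, the most abundant, was at 2.77, 2.16 and 3.28 with Vehicle and 3.31, 2.34 and 2.74 with AZD7507. Adamtsl4, tied to fibrillin microfibrils, was at 2.35, 2.15 and 2.15 against 2.04, 1.75 and 2.39, and Adamtsl5 at 1.26, 1.38 and 1.52 against 1.42, 1.01 and 1.05. Adamtsl3 was at 1.05, -0.27 and 1.86 against 1.40, 0.55 and 1.07, with the acinar-rich pair below the other 4 tumours. Adamtsl2 was at -2.31, -1.02 and -1.70 against -2.14, -1.58 and -2.03, with that pair above them. Groups overlapped for all 5, and limma adjusted p ran from 0.78 to 0.98.

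Without Vehicle 2 and AZD7507 2 no member was called either, and 0.0857% of all genes were. With an unadjusted p under 0.05, 12 members were higher with AZD7507 (23.1%), against 7.59% of all genes, and 3 lower (5.77%), against 8.77%. The 12 were Mmp8, Mmp10, Mmp13, Mmp17, Adam12, Adamts1, Adamts4, Adamts5, Adamts9, Adamts14, Timp1 and Timp3, and the 3 were Adam1a, Adam4 and Adamts10. Of these 15 genes only Adamts14 had such a p with all 6 tumours. Their limma adjusted p without the pair ran from 0.091 for Timp1 to 0.30. Medians without the pair were 0.23 for MMP, -0.30 for ADAM, 0.28 for ADAMTS, -0.08 for ADAMTSL and 0.26 for TIMP, against 0.10, -0.24, 0.18, -0.16 and 0.13 with all tumours and 0.02 for all genes in either fit.

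**Figure D4:**
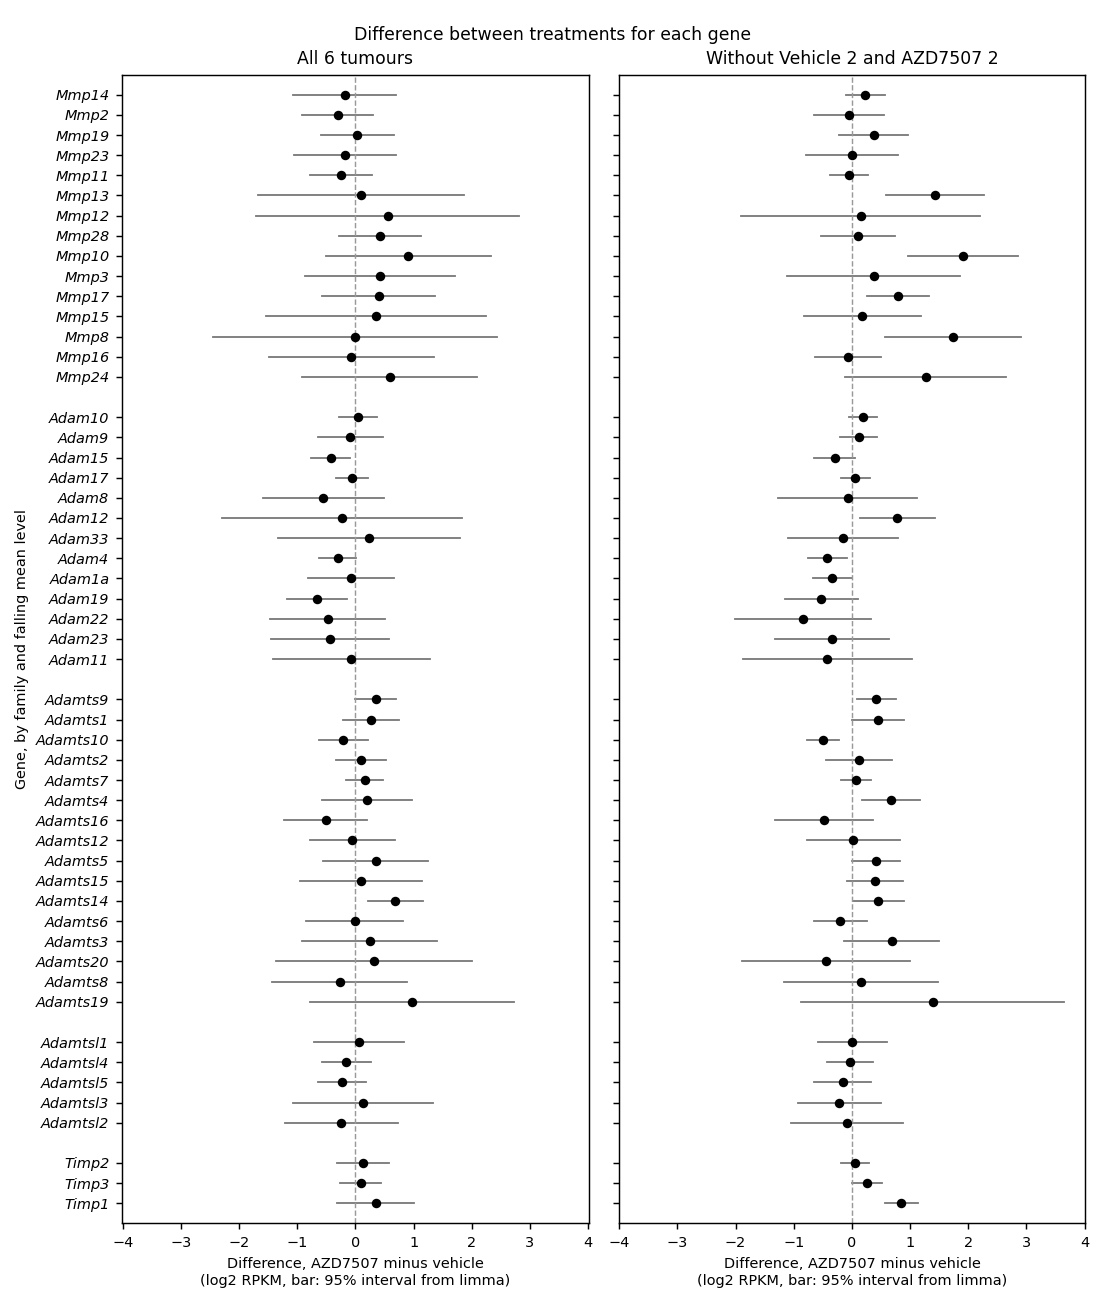
Difference between AZD7507 and Vehicle in log2 RPKM (horizontal axis, points) with its 95% interval from limma (bars) for each of the 52 genes, with all 6 tumours on the left and without the acinar-rich pair on the right. On the left the intervals of Adam15, Adam19 and Adamts14 are the 3 that do not include 0. On the right the intervals of 12 genes lie above 0, among them Timp1, Mmp10, Mmp13 and Mmp8, and those of 3 genes lie below 0.

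Genes on the lists of proteinase partners, inhibitors and regulators were not called either. Of the proprotein convertases and other secreted partners 8 of 11 were measured, and the smallest p belonged to Pcolce2 (difference -1.25), Pcolce (0.31) and the convertase Furin (-0.22), at limma adjusted p of 0.60, 0.64 and 0.73. Of other inhibitors and clearance genes 9 of 12 were measured. The clearance receptor Lrp1 was at 7.69, 7.45 and 7.44 with Vehicle and 7.31, 6.71 and 7.05 with AZD7507, a difference of -0.50 (limma adjusted p 0.45). The inhibitor genes Tfpi2 and Reck differed by 1.13 and -0.70 (limma adjusted p 0.52 and 0.59). Of the regulators of ADAM10 and ADAM17, 8 of 9 were measured, with Tspan5 at a difference of 0.22, Tspan14 at -0.15 and Rhbdf1 at -0.14.

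Among genes for proteins that ADAMs shed, 20 of 22 were measured and none was called. Il6ra, Notch2, Cxcl16 and Jag1, that is 4 genes, were lower at an unadjusted p under 0.05, and 1 gene, Btc, was higher, against 5.49% and 3.31% of all genes. Il6ra, the interleukin-6 receptor, was at 1.85, 2.46 and 1.61 with Vehicle and 0.85, 1.15 and 0.44 with AZD7507, a difference of -1.16 with an SE of 0.27 (limma adjusted p 0.20). Btc, an EGF receptor ligand, was at 1.98, 2.06 and 1.89 against 2.59, 2.71 and 2.37, a difference of 0.58 with an SE of 0.13 (limma adjusted p 0.18). The groups did not overlap for either gene, and without the acinar-rich pair the differences were -1.08 and 0.54. Macrophage markers were lower in the same tumours, and their part in the Il6ra values was not tested. Notch2 differed by -0.37, Cxcl16 by -0.42 and Jag1 by -0.30, with limma adjusted p from 0.48 to 0.57.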

How the data were processed

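The authors deposited a table of log2 RPKM values for 16344 Ensembl genes in 6 libraries, normalized with cqn per the name of the deposited table. Per the submitters' processing notes, BWA 0.7.15-r1140 and HTSeq were used with mm10 and GRCm38. The sources used here do not state the annotation release, the strand setting or how low genes were removed. Libraries were ribosomal RNA-depleted total RNA, per the labels' protocols. No read counts entered the analysis, so depth is unknown. The labels do not tie tumours to single animals, so p-values measure only the spread between these samples. cqn equalises libraries, so a global change in RNA cannot be seen.

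Symbols were matched for 16306 genes. The deposited log2 values of all genes were fitted with limma 3.58.1 in R 4.3.3 (trended, robust variance prior, no pseudocount, no filter), 2-sided, with Benjamini-Hochberg adjustment over all genes at 0.05. The fit was tested on simulated data. Replicates were numbered in record order. The members and gene lists were chosen with earlier results of these data known. Values per tumour were given for called members, per family the 4 with the smallest p and the 4 highest, members with 1 tumour at least 1 log2 unit apart, all TIMPs and a fixed set of 11 genes. The 3 members with the smallest p came from each pathway list. Others were added after their values were seen. Coordinates are GENCODE M21 on GRCm38. Alternatives were a constant prior, array weights, centring on medians, normalization by quantiles, a pseudocount of 0.1 or 1, a filter keeping genes with a mean log2 RPKM of at least 0, and leaving out each library or the acinar-rich pair.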

Additional observations from a re-analysis of the deposited data

How the results depend on the processing

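The count of members called was 0 in both directions under each of the 14 alternatives. Over all genes, 55 were called lower and 3 higher. Array weights gave 143 and 14, leaving out the acinar-rich pair 13 and 1, and a constant prior 1 higher. Leaving out 1 library gave 0 to 14 lower and 0 higher. The TIMP median of 0.13 was 0.19 with array weights, 0.26 without the pair, and 0.078 (without AZD7507 1) to 0.24 with 1 library left out. The ADAM median of -0.24 was -0.41 (without Vehicle 1) to -0.14 (without AZD7507 1). The MMP median of 0.10 turned to -0.19 without Vehicle 1 and -0.13 without AZD7507 1, and reached 0.39 without AZD7507 2. The median of all members, 0.036, ran from -0.099 (without AZD7507 1) to 0.12, and was -0.081 without Vehicle 1. Members at an unadjusted limma p under 0.05 numbered 0 to 4 lower and 1 to 12 higher over all alternatives.

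Of the 52 members, 22 kept their sign in the alternatives run for them and 30 did not, none of them called. The 10 members with a mean level below 0 had no value under the filter on low levels. With array weights and without the pair, respectively, the differences became 1.38 and 1.74 for Mmp8, 0.10 and 0.23 for Mmp14, 0.13 and 0.12 for Adam9, 0.68 and 0.78 for Adam12, 0.041 and 0.058 for Adam17, -0.29 and -0.15 for Adam33, -0.54 and -0.45 for Adamts20, and -0.26 and -0.22 for Adamtsl3. Leaving out the pair also turned Adamts8 (0.16) and Adamts12 (0.023). Array weights alone turned Adamts2 (-0.012) and Adamtsl1 (-0.047), and a pseudocount of 1 turned Adamts20 (-0.020). With 1 library left out, differences ran from -0.67 to 1.21 for Mmp8, -0.39 to 0.0088 for Mmp11, -0.32 to 1.39 for Mmp12, -0.58 to 0.91 for Mmp13, -0.50 to 0.30 for Mmp14, -0.24 to 0.27 for Mmp19, -0.45 to 0.17 for Mmp23, -0.026 to 0.96 for Mmp3, -0.45 to 0.97 for Mmp15 and -0.61 to 0.47 for Mmp16. They ran from -0.28 to 0.19 for Adam9, -0.034 to 0.17 for Adam10, -0.96 to 0.92 for Adam12, -0.11 to 0.039 for Adam17, -0.45 to 0.12 for Adam1a, -0.53 to 0.27 for Adam11 and -0.50 to 0.75 for Adam33. They ran from -0.051 to 0.22 for Adamts2, -0.10 to 0.57 for Adamts4, -0.42 to 1.14 for Adamts20, -0.23 to 0.80 for Adamts3, -0.39 to 0.20 for Adamts6, -0.72 to 0.016 for Adamts8, -0.25 to 0.27 for Adamts12, -0.25 to 0.62 for Adamts15, -0.23 to 0.33 for Adamtsl1, -0.56 to 0.085 for Adamtsl2, -0.45 to 0.62 for Adamtsl3, -0.057 to 0.24 for Timp2 and -0.0036 to 0.22 for Timp3. The cause was not tested. With 3 tumours a group and unknown depth, low-level members such as Adamts19 and Mmp24 have wide intervals. No paired analysis was possible because the labels give the tumours no shared replicate numbers.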
